A study of Mus musculus with 6 samples.

Results

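Genes that copy DNA and genes that divide the cell were followed in Paneth cells (PCs), which sit at the bottom of small intestinal crypts and secrete antimicrobial proteins from their granules. They were 50 genes of 55414 in the deposited table, found there by Ensembl identifier from a list of gene symbols and not by their values: 21 act in DNA replication, 25 in mitosis, and 4 are G1/S cyclins. PCs had been sorted from the small intestine of 6 C57BL/6J mice, by the study's design text 1 mouse for each library, 15 h after injection of phosphate-buffered saline (PBS, the control, 3 mice) or tumour necrosis factor (TNF, 3 mice). All mice, controls included, were knockouts of Ifnar1, which encodes a chain of the receptor for type I interferons, so there was no library with the receptor. The labels gave no age, sex, litter or sequencing batch.

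A cell enters the cycle when D-type and E-type cyclins activate their kinases and E2F factors are released from pocket proteins. The MCM helicase is then loaded onto origins, opened with CDC45 and GINS, and followed by polymerases held on DNA by the PCNA clamp. Mitotic genes are transcribed later, in G2 and M phase, and are controlled, by repression as well as activation, largely through the DREAM and MuvB complexes that bind the CHR element. In the crypt, stem cells and transit-amplifying cells divide, whereas mature PCs are held to be post-mitotic.

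Promoters were compared first because the classes differ in the letters that these factors read. RefSeq promoter sequences (assembly GRCm38.p6, 250 bases before to 50 after the gene's start) were matched by symbol for 18 of the 21 replication, 21 of the 25 mitosis and 1 of the 4 G1/S genes. The motifs searched on both strands were the E2F sites TTTCCCGC, TTTCGCGC, TTTGCCGC and TTTGGCGC, the CHR element TTTGAA and the CCAAT box CCAAT. An E2F site lay in 8 of 18 replication genes (44.4%) and in 1 of 21 mitosis genes (4.76%, Cdk1), against 2.6% of all 27025 genes of that table. The CHR element lay in 3 replication genes (16.7%) and 15 mitosis genes (71.4%), against 20.2% of all genes. A CCAAT box was held by 10 replication genes (55.6%) and 18 mitosis genes (85.7%), against 41.1%. Both a CHR element and a CCAAT box were present in 2 replication genes (11.1%) and 15 mitosis genes (71.4%), against 7.97%. In further genes of the same kinds, the E2F site was found in 11 of 30 replication and 5 of 40 mitosis genes, and the CHR element in 6 and 27. These matches are descriptions of letters and do not show that a factor was bound in these cells.

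**Figure D1:**
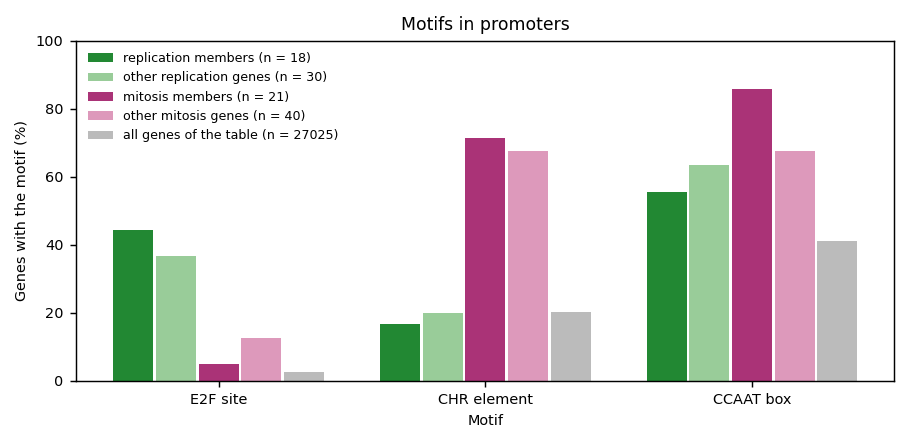
Share of genes (%) whose promoter window holds each motif, for the replication and mitosis members, further genes of both kinds and all genes of the RefSeq table, with n the genes matched. The E2F bars are tallest in the replication classes (44.4% and 36.7%) and the CHR bars in the mitosis classes (71.4% and 67.5%).

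The promoters below belong to the replication and the mitosis genes with the smallest p-values among those matched. They are printed 5′ to 3′ on the strand of the gene, with motif letters in capitals, and overlapping matches run together. Mcm6 (chr1:128359656-128359955, minus strand) held 3 E2F and 2 CCAAT matches, and Mcm5 (chr8:75109259-75109558, plus strand) held 2 E2F and 3 CCAAT matches. Mki67 (chr7:135716330-135716629, minus strand) held 2 CHR and 3 CCAAT matches, and Top2a (chr11:99024140-99024439, minus strand) held 2 CHR and 6 CCAAT matches.
Mcm6: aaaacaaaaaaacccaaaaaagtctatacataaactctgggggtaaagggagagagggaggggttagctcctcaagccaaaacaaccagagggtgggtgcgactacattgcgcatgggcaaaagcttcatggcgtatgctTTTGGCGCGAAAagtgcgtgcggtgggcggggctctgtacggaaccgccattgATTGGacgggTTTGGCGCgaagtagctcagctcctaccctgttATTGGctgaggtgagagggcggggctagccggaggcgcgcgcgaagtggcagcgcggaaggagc
Mcm5: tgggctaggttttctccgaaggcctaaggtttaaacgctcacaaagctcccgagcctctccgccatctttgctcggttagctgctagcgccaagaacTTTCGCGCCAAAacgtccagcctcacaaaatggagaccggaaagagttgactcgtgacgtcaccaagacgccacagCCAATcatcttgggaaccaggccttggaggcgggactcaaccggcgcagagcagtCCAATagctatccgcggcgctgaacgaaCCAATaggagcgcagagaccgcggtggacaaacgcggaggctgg
Mki67: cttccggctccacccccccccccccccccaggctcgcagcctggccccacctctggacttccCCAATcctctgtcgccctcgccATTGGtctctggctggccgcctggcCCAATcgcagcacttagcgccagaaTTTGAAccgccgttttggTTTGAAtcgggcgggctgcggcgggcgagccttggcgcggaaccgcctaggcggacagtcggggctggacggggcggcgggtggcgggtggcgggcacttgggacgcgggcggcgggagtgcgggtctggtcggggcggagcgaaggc
Top2a: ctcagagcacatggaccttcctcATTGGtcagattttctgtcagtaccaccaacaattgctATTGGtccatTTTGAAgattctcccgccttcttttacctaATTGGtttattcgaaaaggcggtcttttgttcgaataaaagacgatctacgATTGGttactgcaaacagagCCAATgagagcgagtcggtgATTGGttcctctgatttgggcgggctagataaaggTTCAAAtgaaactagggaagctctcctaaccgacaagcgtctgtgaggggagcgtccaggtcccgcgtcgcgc
The Mcm6 and Mcm5 windows each carried a pair of E2F matches that overlap on opposite strands, starting 110 and 106 bases before the start in Mcm6 and 153 and 149 bases before it in Mcm5. The CHR matches of Mki67 began 116 and 98 bases before its start.

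Total counts were 12747484 to 17039511 per library. PC markers, led by lysozyme (Lyz1), summed to 177479 to 316033 CPM (counts scaled to a common library size with TMM factors) in every library, so the labelled cell type was present throughout. TNF replicate 1 stood apart from its group: over 13026 genes its log2 CPM correlated at 0.937 to 0.945 with PBS libraries and at 0.883 to 0.884 with TNF replicates 2 and 3. Eif2s3y, Ddx3y, Uty and Kdm5d, all on chromosome Y, together gave 846 counts in PBS replicate 3 and 669 in TNF replicate 3, and at most 2 elsewhere, while Xist stood at 192 CPM in TNF replicate 3 and 9.4 CPM in PBS replicate 3. Male cells express the former and female cells the latter, and TNF replicate 3 held both. Whether it came from 1 mouse, and the part of sex in the results, was not tested. The targeted gene Ifnar1 was at 5.19, 8.88 and 9.55 CPM after PBS and 5.18, 7.78 and 12.7 CPM after TNF. Counts over the whole gene cannot check a deletion when no library with the intact gene is at hand. TNF replicate 1 was kept as labelled. Counts and medians are given with and without it, and some single genes only without it.

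All 50 genes were counted in every library and passed the filter on low counts. Per kb of exon, their mean PBS levels ran from 0.213 CPM per kb (Ccne1) to 15.6 CPM per kb (Pcna), with a median of 2.54. Top2a at 10.3 and Ccnd2 at 9.8 CPM per kb came next to Pcna. Replication genes had a median of 2.86 and mitosis genes of 2.21 CPM per kb in PBS. Exon length was that of all annotated exons of a gene joined, so levels per kb also depend on the annotation. In bulk RNA, fewer cycling cells and less RNA per cycling cell cannot be told apart.

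The replication genes summed to 456, 310.1 and 269.6 CPM in PBS replicates 1 to 3, and to 348, 194 and 201 CPM in TNF replicates 1 to 3. The mitosis genes summed to 525, 347 and 363 CPM in PBS and to 531, 139.6 and 143 CPM in TNF. Thus TNF replicates 2 and 3 lay below every PBS library in both classes, and TNF replicate 1 lay inside the PBS range for replication and just above it for mitosis. The TMM factor of TNF replicate 1 was the lowest, at 0.798, against 0.959 to 1.109 in PBS. PBS replicate 1 held more mitosis counts than TNF replicate 1, 7272 against 6252, in a smaller library. The place of TNF replicate 1 relative to PBS thus depends on the scaling. The mean PBS sum was 1.75 times the mean of TNF replicates 2 and 3 for replication genes and 2.91 times for mitosis genes. PBS replicate 1 was the highest PBS library for 36 of the 50 genes.

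With edgeR over all 6 libraries, 0 of 50 genes passed an adjusted p of 0.05 in either direction, as did 0% of all 13026 genes tested, and the smallest adjusted p was 0.325 (Mki67). At an unadjusted p under 0.05, 6 genes were lower in TNF (Mki67, Mcm4, Mcm6, Ccnd2, Mcm5 and Cdc6) and 0 higher, against a background of 4% lower and 8.25% higher. DESeq2 also gave 0 members past the adjusted threshold, against 0.276% of all genes lower and 1.58% higher, and 7 at an unadjusted p under 0.05, all lower, against 4.75% lower and 8.18% higher. Limma-voom gave 0 past the adjusted threshold and 16 at an unadjusted p under 0.05, all lower, against 6.1% lower and 6.73% higher. The fitted change was below 0 for 42 of 50 genes. Its median was -0.60 on the log2 scale for replication and -0.59 for mitosis genes, against 0.00 over all genes. The 3 TNF libraries all lay below the 3 PBS libraries for 3 genes, against 7.82% of all genes, and above them for 1 gene (Ccne1), against 9.07%.

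Without TNF replicate 1, 25 of 50 genes fell past the threshold and 0 rose, against 5.4% lower and 9.1% higher among 13660 genes. They were 17 of 25 mitosis genes, 6 of 21 replication genes (Cdc6, Hells, Mcm5, Mcm6, Mcm7 and Tk1) and 2 of 4 G1/S cyclins (Ccnd1 and Ccnd2). Their PBS means were 2.44 to 5.36 times their means in TNF replicates 2 and 3. The median log2 change was -0.92 for replication and -1.52 for mitosis genes, against -0.01 over all genes. TNF replicates 2 and 3 were below all PBS libraries for 24 of 25 mitosis and 14 of 21 replication genes, against 21.6% of all genes. Leaving out any other single library gave 0 members past the threshold. TNF replicate 1 was singled out because it differed from TNF replicates 2 and 3, which alone then stood for the group. Adjusted p-values without it depend on that choice and are not calls for the groups as labelled.

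**Figure D2:**
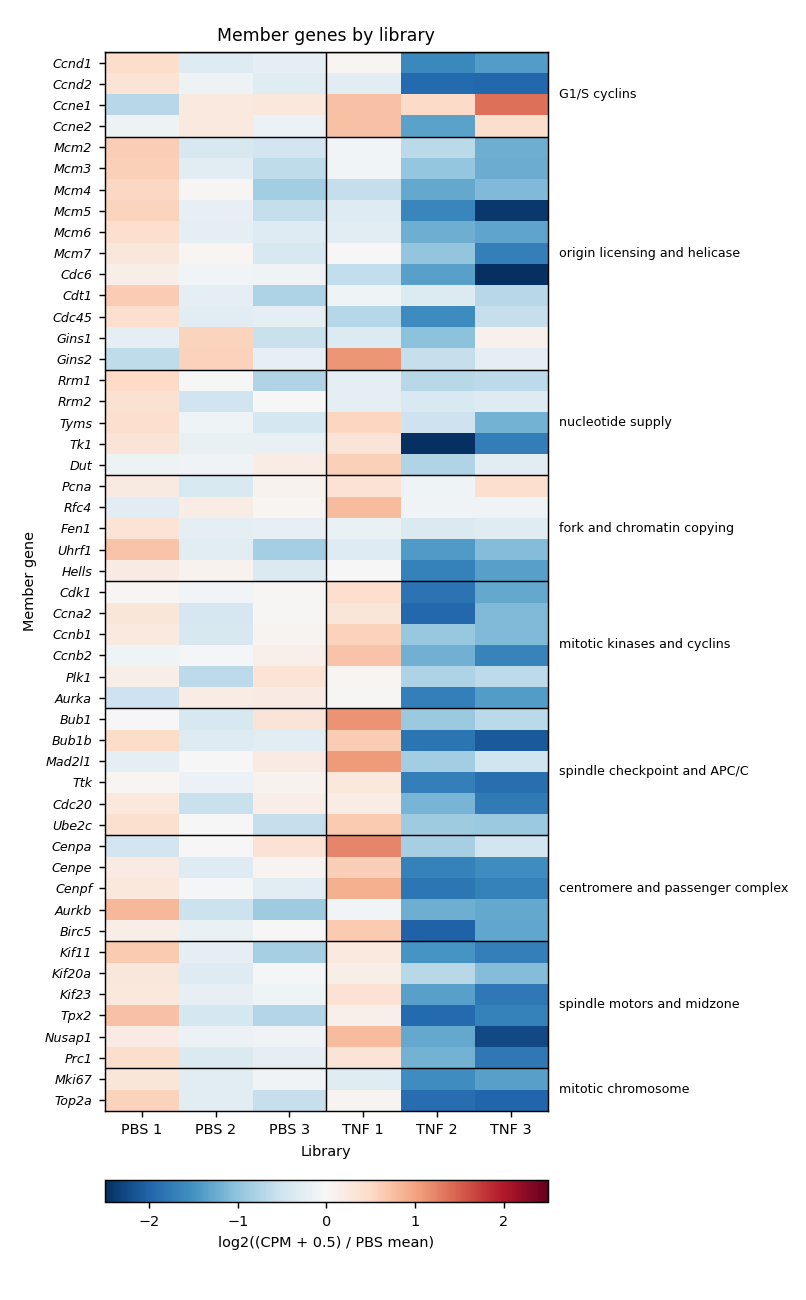
Level of each of the 50 genes in each library as log2((CPM + 0.5) / PBS mean), rows grouped by role and the groups divided by the vertical line. TNF replicates 2 and 3 are blue for most genes (medians -1.21 and -1.26 over all members), TNF replicate 1 is red for many mitosis genes (median 0.36), and PBS replicate 1 is red for most replication genes (median 0.38).

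**Figure D3:**
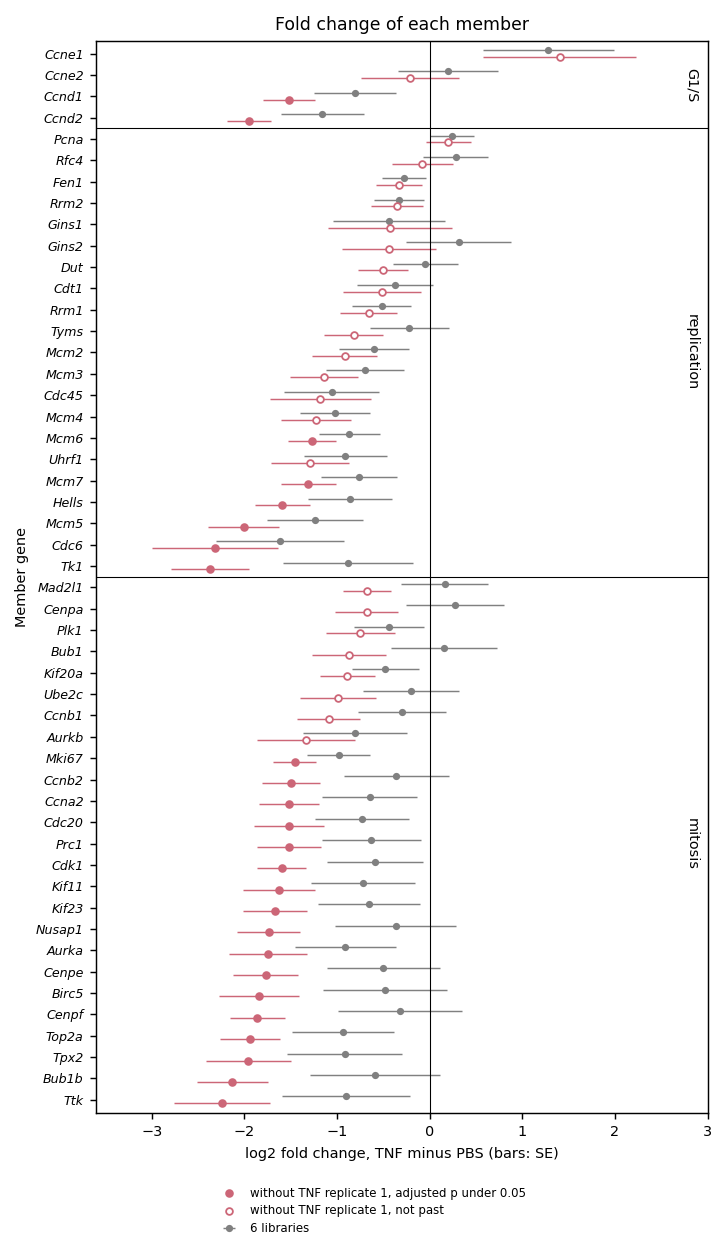
log2 fold change, TNF minus PBS, with its SE for each gene, over 6 libraries (grey) and without TNF replicate 1 (red; filled where the adjusted p was under 0.05). Without TNF replicate 1, 48 of 50 values are below 0, the exceptions being Ccne1 and Pcna.

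The G1/S cyclins did not move as 1 group. Ccnd2 (ENSMUSG00000000184, chromosome 6, 127102125 to 127129156 in GRCm39, as are all gene positions here), a D-type cyclin that couples growth signals to cell cycle entry, stood at 117, 85 and 74.8 CPM after PBS and 77, 23.7 and 23.3 CPM after TNF. Ccnd1, its close relative (ENSMUSG00000070348, chromosome 7, 144483668 to 144493662), stood at 45.3, 26.4 and 27.9 CPM after PBS and 34.2, 10.6 and 12.3 CPM after TNF. For both, TNF replicate 1 was within the PBS range and the other TNF libraries were below it. The log2 change of Ccnd2 was -1.16 (SE 0.45, edgeR adjusted p 0.354), and -1.95 (SE 0.24, adjusted p 0.000405) without TNF replicate 1. That of Ccnd1 was -0.81 (SE 0.44, adjusted p 0.482), and -1.52 (SE 0.28, adjusted p 0.00427) without it. Ccne1, an E-type cyclin that drives S-phase entry, was low throughout, at 0.289, 1.0 and 1.03 CPM after PBS and 1.61, 1.27 and 2.82 CPM after TNF. All its TNF libraries lay above PBS, with a log2 change of 1.28 (SE 0.71, adjusted p 0.491).

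Origin licensing and helicase genes were the most reduced of the replication roles in TNF replicates 2 and 3, with a PBS sum 2.36 times theirs. Of these, 4 of 11 passed without TNF replicate 1, all lower, against 5.4% of all genes lower. Mcm6 (ENSMUSG00000026355, chromosome 1, 128259311 to 128287516), a subunit of the MCM helicase ring and the gene with 3 E2F matches above, stood at 49.9, 32 and 29.8 CPM after PBS and 30.8, 15.8 and 14.7 CPM after TNF. Mcm4, another ring subunit (ENSMUSG00000022673, chromosome 16, 15440211 to 15455264), stood at 22, 15.6 and 8.08 CPM after PBS and 9.86, 5.97 and 6.84 CPM after TNF. TNF replicate 1 overlapped the PBS libraries in both genes, while the other TNF libraries were lower. The log2 change of Mcm6 was -0.87 (SE 0.33, adjusted p 0.349), and -1.27 (SE 0.26, adjusted p 0.00815) without TNF replicate 1. That of Mcm4 was -1.02 (SE 0.38, adjusted p 0.341), and -1.23 (SE 0.38, adjusted p 0.0518) without it. Of the loading factors, Cdc6 was lower in every TNF library (2.29, 1.17 and 0.242 CPM) than in every PBS library (3.53 to 4.26 CPM). Its log2 change was -1.62 (edgeR adjusted p 0.394), and -2.32 (adjusted p 0.0419) without TNF replicate 1. These values rest on few counts, 27, 24 and 3 in TNF. Without TNF replicate 1, Cdc6 did not pass under library size alone, limma-voom, or on also leaving out PBS replicate 2 or 3. Gins1 and Gins2, parts of the active helicase, had log2 changes of -0.44 and 0.31 over 6 libraries and of -0.43 and -0.44 without TNF replicate 1, and did not pass in either fit. The sign of Gins2 thus turned with that library.

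Nucleotide supply genes were split. Rrm1 (ENSMUSG00000030978, chromosome 7, 102090890 to 102119709), the large subunit of ribonucleotide reductase, stood at 47.5, 33.6 and 19.8 CPM after PBS and 28.7, 20.6 and 21.2 CPM after TNF, so all TNF values lay within the PBS range. Tk1 (ENSMUSG00000025574, chromosome 11, 117702770 to 117717042), thymidine kinase, stood at 13.6, 9.41 and 9.48 CPM after PBS and 13.7, 1.32 and 2.9 CPM after TNF. TNF replicate 1 thus matched the highest PBS library, whereas the others were several-fold lower. The log2 change of Tk1 was -0.88 (SE 0.70, adjusted p 0.639), and -2.37 (SE 0.42, adjusted p 0.0035) without TNF replicate 1. Rrm2, Tyms and Dut did not pass with or without that library.

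Fork and chromatin copying genes had the smallest ratio of sums, with a PBS sum 1.24 times that of TNF replicates 2 and 3. Pcna (ENSMUSG00000027342, chromosome 2, 132091082 to 132095234), the sliding clamp and the most abundant replication gene per kb, stood at 43.6, 28.6 and 39.9 CPM after PBS and 48.1, 34.7 and 50 CPM after TNF. The groups overlapped, with a log2 change of 0.24 (SE 0.24, adjusted p 0.712), and of 0.20 (SE 0.24, adjusted p 0.643) without TNF replicate 1. Pcna led both sums, with 37.4 of 93.1 CPM in PBS and 42.4 of 75.1 CPM in TNF replicates 2 and 3. By gene, the ratio of these means was 0.882 for Pcna, 1.07 for Rfc4, 1.27 for Fen1, 2.47 for Uhrf1 and 3.05 for Hells. Rfc4, of the clamp loader, and Fen1, the flap nuclease, had log2 changes of 0.28 and -0.28 over 6 libraries (adjusted p 0.782 and 0.66) and of -0.08 and -0.33 without TNF replicate 1 (adjusted p 0.907 and 0.425). Hells (ENSMUSG00000025001, chromosome 19, 38919359 to 38960047), a chromatin remodeller, stood at 15.9, 14.6 and 10.6 CPM after PBS and 13.8, 3.91 and 5.07 CPM after TNF. Its log2 change was -0.86 (SE 0.45, edgeR adjusted p 0.472), and -1.59 (SE 0.30, adjusted p 0.00552) without TNF replicate 1. Uhrf1, which links DNA methylation to copying (ENSMUSG00000001228, chromosome 17, 56610275 to 56630489), stood at 25.2, 12.4 and 8.23 CPM after PBS and 12.2, 5.43 and 6.93 CPM after TNF. Its log2 change was -0.91 (SE 0.45, edgeR adjusted p 0.443), and it did not pass without that library either (log2 change -1.29, SE 0.42, adjusted p 0.0648).

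Mitotic kinases and cyclins drive entry into mitosis, and 4 of 6 passed without TNF replicate 1, all lower, against 5.4% of all genes lower. Ccna2 (ENSMUSG00000027715, chromosome 3, 36619014 to 36626299), cyclin A2, active in S and G2 phase, stood at 30.4, 18.4 and 25.1 CPM after PBS and 30.3, 5.97 and 11.2 CPM after TNF. Aurka, a centrosome and spindle kinase (ENSMUSG00000027496, chromosome 2, 172198109 to 172212849), stood at 4.91, 8.34 and 8.45 CPM after PBS and 7.39, 1.86 and 2.42 CPM after TNF. Both had TNF replicate 1 inside the PBS range. With it, the log2 changes of Ccna2 and Aurka were -0.65 and -0.91 (edgeR adjusted p 0.634 and 0.518). Without it, Ccna2 fell by 1.52 (SE 0.32, adjusted p 0.00925) and Aurka fell by 1.75 (SE 0.42, adjusted p 0.0182) on the log2 scale. Cdk1, the kinase that triggers mitosis, was even in PBS (19.4 to 20.7 CPM) and stood at 27.4, 5.23 and 8.05 CPM in TNF. Plk1 and Ccnb1 did not pass.

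Spindle checkpoint and APC/C genes hold or release the metaphase cell. Of these, 3 of 6 passed without TNF replicate 1, all lower, against 5.4% of all genes lower. Ttk (ENSMUSG00000038379, chromosome 9, 83703392 to 83755037), the kinase that starts the checkpoint, stood at 4.47, 3.87 and 4.63 CPM after PBS and 5.27, 0.978 and 0.805 CPM after TNF. Cdc20, an activator of the APC/C ligase (ENSMUSG00000006398, chromosome 4, 118290098 to 118294610), stood at 12.3, 6.81 and 11.5 CPM after PBS and 11.6, 4.3 and 2.66 CPM after TNF. Mad2l1, a checkpoint protein that restrains Cdc20 (ENSMUSG00000029910, chromosome 6, 66512208 to 66524204), stood at 14, 16.4 and 19.3 CPM after PBS and 35.2, 8.85 and 11.6 CPM after TNF. In this role 5 of 6 genes were highest in TNF replicate 1, against 17.5% of all genes. The other TNF libraries were below PBS for all 6, against 21.6% of all genes. The ranks are of CPM and depend on the TMM factor of TNF replicate 1 (0.798). Over 6 libraries the log2 changes of Ttk, Cdc20 and Mad2l1 were -0.90, -0.73 and 0.16 (edgeR adjusted p 0.631, 0.585 and 0.915). On leaving out TNF replicate 1, Ttk fell by 2.24 (SE 0.52, adjusted p 0.0155) and Cdc20 fell by 1.52 (SE 0.38, adjusted p 0.022), whereas Mad2l1 did not pass (log2 change -0.68, adjusted p 0.103).

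The centromere and passenger complex genes build the kinetochore and correct chromosome attachment. Of these, 3 of 5 passed without TNF replicate 1, all lower, against 5.4% of all genes lower. Cenpf (ENSMUSG00000026605, chromosome 1, 189372752 to 189420315), a large kinetochore protein, stood at 17, 13.9 and 11.5 CPM after PBS and 26.6, 3.67 and 4.03 CPM after TNF. Cenpe, a kinetochore motor (ENSMUSG00000045328, chromosome 3, 134918298 to 134979372), stood at 10.7, 7.34 and 9.7 CPM after PBS and 14.4, 2.54 and 2.82 CPM after TNF. TNF replicate 1 exceeded every PBS library in both, and the other TNF libraries were below them all. Aurkb, the passenger complex kinase (ENSMUSG00000020897, chromosome 11, 68936467 to 68944764), stood at 14.4, 5.27 and 4.04 CPM after PBS and 7.48, 3.13 and 2.98 CPM after TNF. Over 6 libraries the log2 changes of Cenpf, Cenpe and Aurkb were -0.32, -0.50 and -0.81 (edgeR adjusted p 0.874, 0.775 and 0.582). Without TNF replicate 1, Cenpf fell by 1.86 (SE 0.30, adjusted p 0.00204) and Cenpe fell by 1.77 (SE 0.35, adjusted p 0.00695), while Aurkb did not pass (adjusted p 0.119).

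Spindle motors and midzone genes separate the chromosomes and set the cleavage plane. Of these, 5 of 6 passed without TNF replicate 1, all lower, against 5.4% of all genes lower. Kif11 (ENSMUSG00000012443, chromosome 19, 37364799 to 37410307), which pushes the spindle poles apart, stood at 37.1, 20 and 12.9 CPM after PBS and 27.9, 8.07 and 6.76 CPM after TNF. Tpx2, a spindle assembly factor (ENSMUSG00000027469, chromosome 2, 152689854 to 152737245), stood at 20.2, 8.74 and 7.05 CPM after PBS and 13.1, 2.74 and 3.38 CPM after TNF. TNF replicate 1 was again within the PBS range. With it, the log2 changes of Kif11 and Tpx2 were -0.72 and -0.92 (edgeR adjusted p 0.632 and 0.576). Without it, Kif11 fell by 1.63 (SE 0.39, adjusted p 0.0183) and Tpx2 fell by 1.96 (SE 0.46, adjusted p 0.0169). Kif20a, a motor of the midzone, stood at 14.6, 9.48 and 11.7 CPM after PBS and 13.2, 7.19 and 5.4 CPM after TNF and did not pass (adjusted p 0.0716).

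The mitotic chromosome genes Mki67 and Top2a both passed without TNF replicate 1, both lower, against 5.4% of all genes lower. Mki67 (ENSMUSG00000031004, chromosome 7, 135291513 to 135318299), the coat protein read as a proliferation marker, stood at 60.1, 39.5 and 45.9 CPM after PBS and 39.1, 16.1 and 18.7 CPM after TNF. All its TNF libraries lay below all PBS libraries, TNF replicate 1 by a narrow margin. Top2a, the topoisomerase that untangles sister DNA (ENSMUSG00000020914, chromosome 11, 98883769 to 98915062), stood at 141, 78.9 and 62.7 CPM after PBS and 99.3, 24.8 and 23.6 CPM after TNF. The log2 change of Mki67 was -0.98 (SE 0.34, adjusted p 0.325), and -1.46 (SE 0.23, adjusted p 0.00204) without TNF replicate 1. That of Top2a was -0.94 (SE 0.55, adjusted p 0.515), and -1.94 (SE 0.32, adjusted p 0.0025) without it.

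The balance of the classes was then compared within each library, where scaling factors cancel. Summed mitosis counts over summed replication counts were 1.15, 1.12 and 1.35 in PBS and 1.53, 0.72 and 0.714 in TNF. Mitosis counts exceeded replication counts in the PBS libraries and in TNF replicate 1, and fell short of them in TNF replicates 2 and 3. On the log2 scale the mean was 0.26 ± 0.14 (SD, n = 3) in PBS and -0.12 ± 0.63 in TNF, a difference of -0.38 that was smaller than the TNF spread, and of -0.74 without TNF replicate 1. Among 40 further replication and 48 further mitosis genes the ratio was 1.56, 1.51 and 1.59 in PBS and 1.65, 1.15 and 1.25 in TNF. TNF replicates 2 and 3 were again the lowest, but mitosis counts exceeded replication counts in every library there. No p-value is given for a ratio over chosen genes. TNF replicate 1 was the highest library for 14 of 25 mitosis and 5 of 21 replication genes, against 17.5% of all genes, and lay above PBS with the other TNF libraries below it for 14 and 3, against 5.73%. These ranks are of CPM and depend on the TMM factor of TNF replicate 1 (0.798).

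**Figure D4:**
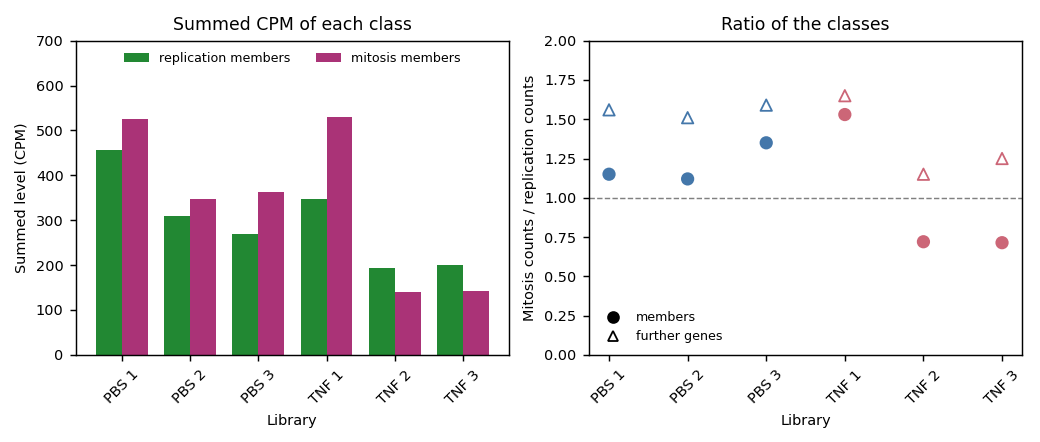
Left, summed CPM of the 21 replication and 25 mitosis genes in each library. Right, mitosis counts divided by replication counts for the members (dots) and for further genes of both kinds (triangles), PBS blue and TNF red, with the dashed line at equal counts: the members' ratio is 0.72 and 0.714 in TNF replicates 2 and 3 and 1.12 or more elsewhere.

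Further genes of the same pathways were counted in the same way. When TNF replicate 1 was left out, 9 of 40 further replication genes fell and 1 rose, and 19 of 48 further mitosis genes fell and 0 rose. Of all genes, 5.4% fell and 9.1% rose past the adjusted threshold. Pole, the leading-strand polymerase, stood at 11.3, 6.81 and 7.94 CPM after PBS and 6.88, 2.45 and 1.53 CPM after TNF. Kif4, a chromosome-bound motor, stood at 14.8, 9.48 and 7.57 CPM after PBS and 7.05, 1.08 and 2.82 CPM after TNF. Cdca8, of the passenger complex, stood at 10.7, 4.34 and 5.58 CPM after PBS and 4.25, 1.81 and 3.7 CPM after TNF. The groups were apart for Kif4 and Cdca8, and for Pole only TNF replicate 1 overlapped PBS. Without that library Pole and Kif4 passed (adjusted p 0.00655 and 0.00628) and Cdca8 did not (adjusted p 0.107). Gmnn, the inhibitor of relicensing that binds Cdt1, went the other way, at 5.92, 6.27 and 6.02 CPM after PBS and 12.8, 11.8 and 14.2 CPM after TNF. Its groups were apart in all 6 libraries (log2 change 1.09, SE 0.25, edgeR adjusted p 0.27, DESeq2 adjusted p 0.0284), and it passed without TNF replicate 1 (1.11, SE 0.27, adjusted p 0.0178).

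Of the CDK inhibitors, which hold cyclin kinases off, 6 of 7 were tested. Cdkn1a, p21, stood at 39.6, 24.8 and 40 CPM after PBS and 46.8, 114 and 111 CPM after TNF. Every TNF library was above every PBS library, by little in TNF replicate 1 (log2 change 1.38, SE 0.35, edgeR adjusted p 0.27, DESeq2 adjusted p 0.0184), and Cdkn1a rose without it (1.71, SE 0.23, adjusted p 0.000743). Cdkn1b, p27, stood at 75.5, 61.1 and 66.9 CPM after PBS and 83.6, 63 and 75.2 CPM after TNF, with a log2 change of 0.12 (SE 0.20, adjusted p 0.839) that was 0.00 under library-size scaling. Cdkn1c, Cdkn2b, Cdkn2c and Cdkn2d had log2 changes of -0.60, -0.10, -0.09 and -0.18 and did not pass with or without TNF replicate 1, the last 3 changing sign when single PBS or TNF libraries were left out. Cdkn2a was at 0 counts in all libraries, which allows up to 0.146 to 0.255 CPM, taking 3 counts as the limit. Of 16 cell cycle transcription factors, 0 passed with edgeR, with 0 at an unadjusted p under 0.05 over 6 libraries and 4 lower without TNF replicate 1, against 12.4% of all genes lower. Among them, Tfdp1, a partner of E2F factors, stood at 34.8, 17.9 and 23.7 CPM after PBS and 20.5, 16.6 and 11.4 CPM after TNF, and Rbl2, a pocket protein, at 30.4, 36.4 and 24.9 CPM and 27.1, 20.4 and 19.8 CPM.

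**Figure D5:**
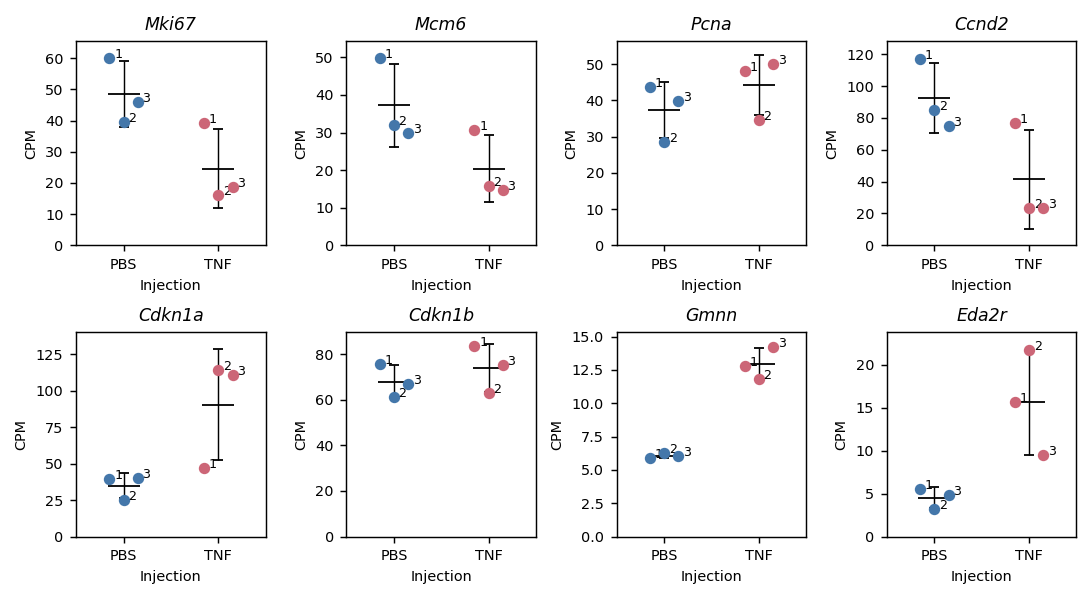
CPM of 4 members (top) and 4 other cell cycle or p53 target genes (bottom) in each library, points numbered by replicate, with group mean and SD (n = 3). TNF replicate 1 lies nearer the PBS points for Mki67, Mcm6, Ccnd2 and Cdkn1a, whereas Gmnn is apart in all 3 TNF libraries (11.8 to 14.2 CPM against 5.92 to 6.27).

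Of 15 p53 target genes, which include brakes on the cycle, 5 had an unadjusted edgeR p under 0.05 over 6 libraries. All 5 were higher, against 8.25% of all genes. Without TNF replicate 1 there were 4 that rose and 1 that fell past the adjusted threshold, against 9.1% and 5.4% of all genes. Eda2r stood at 5.55, 3.2 and 4.78 CPM after PBS and 15.7, 21.7 and 9.5 CPM after TNF. Phlda3 stood at 0, 1.13 and 1.4 CPM after PBS and 3.74, 10.4 and 8.38 CPM after TNF. Both were higher in all TNF libraries, TNF replicate 1 included, and passed over 6 libraries with DESeq2 (adjusted p 0.00321 and 0.00702) but not with edgeR (adjusted p 0.27 and 0.278).

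Stem cell markers, like the members, were lower in TNF replicates 2 and 3, and the part of this and of other cell type markers in the result was not tested. The 12 stem cell markers summed to 3651, 3334 and 2988 CPM after PBS and 5123, 1259.5 and 1079 CPM after TNF, so the sum was highest in TNF replicate 1 and lowest in the other TNF libraries. The sum is led by abundant genes, and only 3 of the 12 markers were highest in TNF replicate 1, against 5 in PBS replicate 1. Without TNF replicate 1, 5 of 12 passed, all lower, against 5.4% of all genes lower. Smoc2 and Tnfrsf19 were among them, while Lgr5, the defining marker of crypt base stem cells, had a log2 change of -0.25 (adjusted p 0.571). The 7 goblet cell markers summed to 4829 to 5124 CPM in PBS and 4003 to 4905 CPM in TNF, and the 9 enterocyte markers to 385 to 446 CPM and 253 to 359 CPM. With TNF replicate 1 left out, 4 of 7 goblet and 5 of 9 enterocyte markers passed, all lower, and of 10 PC markers 2 rose and 3 fell. The shares over all genes were 5.4% lower and 9.1% higher. Fcgbp and Zg16, of goblet cells, and Sis and Apoa1, of enterocytes, fell without TNF replicate 1 (adjusted p 0.0023, 0.000208, 0.00434 and 0.000631). Apoa1, at 14.9, 8.74 and 8.52 CPM after PBS and 0.425, 0.44 and 0 CPM after TNF, was low in all 3 TNF libraries and also passed over 6 libraries with DESeq2 (adjusted p 1.51e-12), though not with edgeR (adjusted p 0.27). The 7 tuft cell markers summed to 444 to 1584 CPM in PBS and 539 to 1079.9 CPM in TNF, and the 7 enteroendocrine markers to 49.3 to 116 CPM and 37.4 to 118 CPM. The 9 immune cell markers summed to 21.6 to 53.3 CPM in PBS and 34.2 to 43.7 CPM in TNF, with Cd3g and Cd8a at 0 in every library.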

How the data were processed

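RNA of sorted PCs was measured in 3 PBS and 3 TNF libraries, grouped by the sample labels. Per the labels, the authors isolated RNA on kit columns, and single-end reads came from an Element AVITI sequencer. The submitters' processing notes name, without role or order, FastQC, Trimmomatic 0.39, STAR 2.7.10a, DESeq2 and mm39. The deposited values were raw counts per Ensembl gene. How reads were counted (tool, annotation release, strand, shared reads) is not given in the sources used here, so histones and other near-identical or overlapping genes are uncertain. Names, positions and exon lengths came from GENCODE for GRCm39, and 54749 of 55414 identifiers matched.

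Counts were fitted in R 4.3.3 with edgeR 4.0.16 (filterByExpr, minimum count 10 and minimum total 15; TMM factors; two-sided quasi-likelihood test, group only), with Benjamini-Hochberg adjustment over all 13026 genes kept, which held 99.8% of counts. The threshold was an adjusted p under 0.05. The SE is the log2 change over the square root of F. CPM use TMM-scaled library sizes. Alternatives were other scalings and filters, DESeq2 1.42.0, limma-voom (limma 3.58.1), a replicate block and leaving out each library. A count of 3 was taken as the limit that 0 allows, covering counting error only.

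The members and lists were chosen with earlier results of these data known, and so were the tests. For each role the genes given in every library are the pair with the smallest unadjusted p over 6 libraries and the most abundant gene; CDK inhibitors are all named, and of other lists the pair with the smallest p. Cdc6, Cdk1, Ccne1 and Lgr5, the genes named only by a call, and the list of histones were chosen after their values were seen. Not every list member is reported here. No pair of libraries within a group was a duplicate, and p-values measure the spread between libraries.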

Additional observations from a re-analysis of the deposited data

How the results depend on the processing

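Over 6 libraries the number of members past the adjusted threshold was 0 under the other scalings, DESeq2, limma-voom, a mean CPM of at least 5, an adjusted p under 0.01 and leaving out any library but TNF replicate 1. With no low-count filter it was 5 (Ccnd2, Mcm5, Mcm6, Mki67 and Top2a, all lower, against 0.849% of 23434 genes lower), at an unadjusted p under 0.05 it was 6, and leaving out single libraries gave 0 to 25, the 25 without TNF replicate 1. Without that library, analyses added after seeing the data gave 23 to 30 members, all lower (3.49% to 7.75% of all genes were lower), under other scalings and tools and on leaving out a PBS library as well. The same 17 mitosis genes were called under each of the other scalings and tools. Leaving out PBS replicate 2 as well kept 16 of them, without Aurka. Leaving out PBS replicate 3 as well kept 14, without Aurka, Cdc20 and Ttk. Of the 6 replication genes, Hells, Mcm5, Mcm6, Mcm7 and Tk1 were called in each of these analyses. Cdc6 was lost under library size alone and limma-voom, and on leaving out PBS replicate 2 or 3 as well. Leaving out single libraries moved the replication median between -0.92 and -0.25, the mitosis median between -1.52 and -0.26, and the log2 ratio of mitosis to replication between -0.74 and -0.19. The ratio difference was -0.24 without Ccna2, Mki67 and Top2a and -0.16 on mean log2 CPM. Limma-voom gave a mitosis median of -1.04, and library size alone gave medians of -0.70 and -0.82 with the median of all genes at -0.11. The cause of these shifts was not tested.

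Signs turned for Mad2l1 under library size alone (-0.08), limma-voom (-0.17) and leaving out single libraries (-0.68 to 0.47), for Cenpf (-1.86 to 0.09 on leaving out single libraries), for Cdkn1b (0.00 under library size alone), for Cdkn2b (-0.37 to 0.17), Cdkn2c (-0.43 to 0.17) and Cdkn2d (-0.48 to 0.02) on leaving out single libraries, and for Ptprc (0.03 with limma-voom, -0.89 to 0.08 on leaving out single libraries). Over all alternatives the log2 change also crossed 0 for 12 other members: Ccne2, Cdt1, Gins1, Gins2, Tyms, Dut, Rfc4, Ccnb2, Bub1, Ube2c, Cenpa and Nusap1.

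Replicate numbers were shared by the groups, but same-numbered libraries did not deviate together (correlations across genes of -0.01, -0.07 and 0.03), so they were not taken as pairs. The deviations were from group means that include TNF replicate 1, which makes this a weak check of pairing. PBS replicate 3 and TNF replicate 3 did share Y-linked counts (846 and 669, at most 2 elsewhere). Whether the numbers mark pairs is not given by the labels. With the replicate block 0 members passed, the medians were -0.58 for replication and -0.92 for mitosis, and Mad2l1 was at -0.12.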

Other observations

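Replication-dependent histone genes, whose messages build up in S phase, were summed as a list chosen after seeing the data. They reached 1754, 957 and 799 CPM after PBS and 2011, 571 and 693 CPM after TNF, so TNF replicate 1 was highest and the other TNF libraries were lowest. The top place rests on the TMM factor, since PBS replicate 1 held more histone counts than TNF replicate 1, 24316 against 23668, in a smaller library. Of 62 listed genes 50 were tested, and 0 passed over 6 libraries with edgeR (0 at an unadjusted p under 0.05, and 0 past the adjusted threshold with DESeq2). Without TNF replicate 1, 11 passed, all lower, against 5.4% of all genes lower. TNF replicate 1 was the highest library in scaled CPM for 35 of the tested genes, against 17.5% of all genes. Near-identical copies make single histone genes uncertain. H2bc21 had a log2 change of -0.60 and H2ac21 of 1.04 over 6 libraries, with edgeR adjusted p-values of 0.507 and 0.522.

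Among PC markers, Nupr1 stood at 289, 194 and 188 CPM after PBS and 156, 975 and 925 CPM after TNF, and rose without TNF replicate 1 (log2 change 2.11, edgeR adjusted p 0.000411). Mmp7 stood at 5576, 5967 and 6895 CPM after PBS and 12883, 7463 and 13712 CPM after TNF (log2 change 0.89, adjusted p 0.429). Of the tuft cell markers, Trpm5 and Dclk1 had log2 changes of -0.79 and -0.82, of the enteroendocrine markers Sct and Neurog3 of -0.31 and -2.06, and of the immune markers Ptprc and Lyz2 of -0.40 and 0.34, and none of these passed (edgeR adjusted p 0.482 to 0.829).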
